A study of Mus musculus with 6 samples.

Results

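The tricarboxylic acid (TCA) cycle enzymes described here were 9 genes chosen by name from the 20632 genes of the deposited expression table, and all 9 passed the filter on low counts, among 12116 genes tested. They were *Cs*, *Idh3a*, *Idh3b*, *Idh3g*, *Ogdh*, *Suclg1*, *Sucla2*, *Fh1* and *Mdh2*. Their transcripts were measured by RNA sequencing of whole hind limb muscle (TA, EDL, GA, SOL and Q together) from unexercised male C57BL/6 mice (C57BL/6J in the study's methods) aged 3 months, with 1 library per mouse. The Baf155 ΔMF group (3 mice, genotype given as Baf155 -/- in the labels) carried MCK-Cre and floxed Baf155 alleles, and the Baf155 WT group (3 mice, given as wild type) carried the floxed alleles without Cre. MCK-Cre acts in striated muscle fibers including the heart, so vessel, blood, connective tissue and satellite cells of the same muscles keep Baf155.

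The TCA cycle runs in the mitochondrial matrix and oxidizes the acetyl group of acetyl-CoA to carbon dioxide, and the reducing equivalents it yields feed the respiratory chain. Citrate synthase makes citrate from acetyl-CoA and oxaloacetate, and its activity is a common measure of the mitochondrial content of muscle. Isocitrate dehydrogenase and the 2-oxoglutarate dehydrogenase complex carry out the oxidative decarboxylations, succinyl-CoA ligase makes ATP or GTP at the substrate level, and succinate dehydrogenase, fumarase and malate dehydrogenase regenerate oxaloacetate. Baf155 is a core subunit of the SWI/SNF chromatin remodeling complex. The question put to these transcripts was whether their levels differed between muscles with and without Baf155.

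Total counts per mouse were between 8426022 and 12469335. *Smarcc1*, the gene that encodes Baf155, was at 23.4, 19.5 and 17.0 CPM (counts per gene scaled to library size) in Baf155 WT mice and at 7.05, 6.54 and 7.72 CPM in Baf155 ΔMF mice, a log2 fold change of -1.49 (SE 0.15, adjusted p = 0.00907). The groups did not overlap for this gene, and its adjusted p was 0.0616, 0.0533 and 0.0678 without WT mouse 2, ΔMF mouse 1 and ΔMF mouse 2, with log2 fold changes of -1.50, -1.48 and -1.43. Skeletal muscle markers were abundant, with *Acta1*, the actin of skeletal muscle fibers, between 24426 and 30787 CPM, and *Ucp1*, which marks brown fat, was at 0 in all 6 mice. The sample titles start with MS13 (WT mouse 1 and ΔMF mice 1 and 2), MS14 (ΔMF mouse 3) or MS15 (WT mice 2 and 3), and the labels do not say what these prefixes stand for. MS13 is the only prefix that holds both genotypes.

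No difference between genotypes was detected for any of the 9 enzyme transcripts. The fitted fold of Baf155 ΔMF over Baf155 WT was between 1.01 (*Fh1*) and 1.16 (*Mdh2*), and the 95% intervals of the 9 folds ran from 0.876 to 1.40. At an adjusted p under 0.05, 0 of 9 were called, beside 0.0248% of all genes tested. At an unadjusted p under 0.05, 0 of 9 were called in either direction, beside 3.35% of all genes that were higher and 4.6% that were lower in Baf155 ΔMF mice. The groups overlapped for 9 of 9, while in 5.2% of all genes every Baf155 ΔMF mouse lay above every Baf155 WT mouse and in 5.57% every one lay below. The point estimate was above 0 for 9 of 9, beside 49.8% of all genes. However, this count was 4 of 9 without a composition scaling of the libraries and 4 of 9 without WT mouse 2. It was 2 of 9 with the title prefix in the model, where the genotype difference rests on the MS13 mice, with 1 Baf155 WT mouse. Relative to the median of all genes, the median log2 fold change of the 9 was 0.0595 in the main comparison. This relative median was 0.0618 without composition scaling, where the median of all genes was -0.0643. The relative median was -0.0154 without WT mouse 2 and -0.0126 with the title prefix. In whole muscle RNA, fewer cells of a type and less RNA per cell cannot be told apart.

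**Figure D1:**
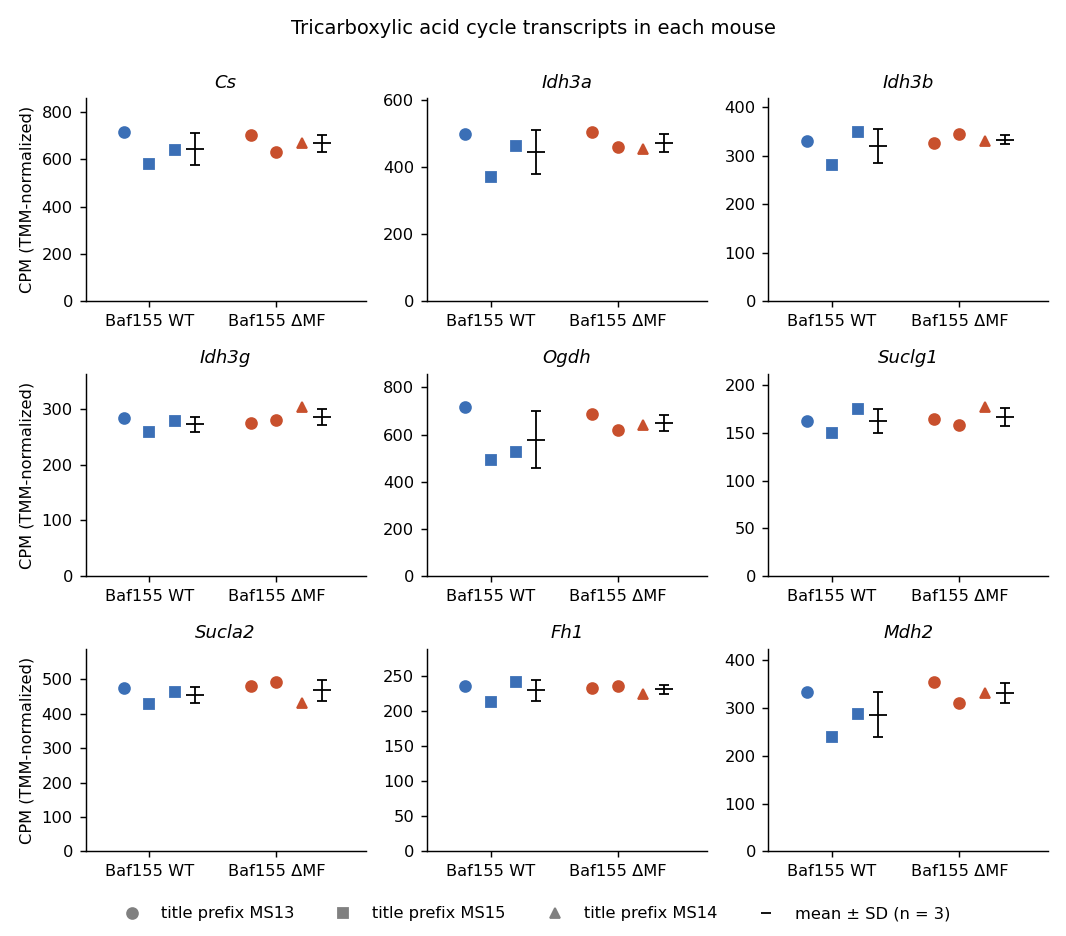
CPM scaled by the trimmed mean of M-values (y axes from 0) of the 9 enzyme transcripts in each of the 3 Baf155 WT (blue) and 3 Baf155 ΔMF (red) mice, with marker shape for the title prefix and black bars for the mean ± SD. The blue and red points overlap in every panel, and the lowest point of each panel is WT mouse 2.

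Entry into the cycle came first. *Cs* (chr10:128337734-128362479, plus strand, GENCODE M21 on GRCm38), which encodes citrate synthase, was at 715, 579.6 and 639.7 CPM in Baf155 WT mice 1 to 3 and at 703, 632 and 669 CPM in Baf155 ΔMF mice 1 to 3. All 3 Baf155 ΔMF values lay inside the Baf155 WT range. The log2 fold change was 0.05 (SE 0.11, 95% interval -0.18 to 0.28, adjusted p = 0.898).

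The NAD-dependent isocitrate dehydrogenase is built from a catalytic alpha subunit and the beta and gamma subunits. *Idh3a* (chr9:54586334-54604661, plus strand), which encodes alpha, was at 499, 371 and 461 CPM in Baf155 WT mice and at 504, 461 and 454 CPM in Baf155 ΔMF mice. Its log2 fold change was 0.09 (SE 0.12, interval -0.17 to 0.35, adjusted p = 0.829), with WT mouse 2 well below the other 5 mice. *Idh3b* (chr2:130279309-130284547, minus strand) was at 331, 281 and 348 CPM in Baf155 WT mice and at 326, 345 and 329.7 CPM in Baf155 ΔMF mice. The 3 Baf155 ΔMF mice were close together and inside the Baf155 WT range, with a log2 fold change of 0.06 (SE 0.10, interval -0.17 to 0.28, adjusted p = 0.879). *Idh3g* (chrX:73778963-73786897, minus strand) was at 283, 257 and 277 CPM in Baf155 WT mice and at 275, 279 and 302 CPM in Baf155 ΔMF mice. ΔMF mouse 3 was the highest and the other 2 Baf155 ΔMF mice lay inside the Baf155 WT range, with a log2 fold change of 0.07 (SE 0.09, interval -0.13 to 0.27, adjusted p = 0.840).

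*Ogdh* (chr11:6291633-6356642, plus strand) encodes the E1 subunit of the 2-oxoglutarate dehydrogenase complex. It was at 715, 494 and 525 CPM in Baf155 WT mice and at 688, 621 and 642 CPM in Baf155 ΔMF mice. WT mouse 1 was above, and WT mice 2 and 3 were below, every Baf155 ΔMF mouse. The means were 578 ± 120 (SD) and 650.3 ± 34.0 CPM (n = 3 each), and the log2 fold change was 0.17 (SE 0.14, interval -0.13 to 0.47, adjusted p = 0.717). *Ogdh* was the only one of the 9 with fractional expected counts, in 6 of 6 mice, and fractional counts arise where reads that match several genes are divided between them.

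Succinyl-CoA ligase pairs a common alpha subunit, encoded by *Suclg1* (chr6:73248382-73276911, plus strand), with an ATP-forming or a GTP-forming beta subunit. *Suclg1* was at 162, 149 and 174 CPM in Baf155 WT mice and at 164, 158 and 176 CPM in Baf155 ΔMF mice, with a log2 fold change of 0.04 (SE 0.09, interval -0.17 to 0.25, adjusted p = 0.918). It had the lowest CPM of the 9, and the lowest value was WT mouse 2 and the highest ΔMF mouse 3. *Sucla2* (chr14:73525319-73596142, plus strand), which encodes the ATP-forming beta subunit, was at 474, 428 and 462 CPM in Baf155 WT mice and at 480.0, 491 and 432 CPM in Baf155 ΔMF mice. ΔMF mice 1 and 2 were the highest and ΔMF mouse 3 was next to the lowest, with a log2 fold change of 0.04 (SE 0.10, interval -0.17 to 0.25, adjusted p = 0.914).

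*Fh1* (chr1:175600374-175625635, minus strand) encodes fumarase, which hydrates fumarate to malate. It was at 236, 212 and 241 CPM in Baf155 WT mice and at 232, 236 and 224 CPM in Baf155 ΔMF mice. This was the smallest estimate of the 9, with a log2 fold change of 0.01 (SE 0.09, interval -0.19 to 0.21, adjusted p = 0.980). *Mdh2* (chr5:135778480-135790398, plus strand) encodes the mitochondrial malate dehydrogenase, which closes the cycle. It was at 333, 239 and 287 CPM in Baf155 WT mice and at 353, 310.4 and 331 CPM in Baf155 ΔMF mice. WT mouse 1 lay inside the Baf155 ΔMF range, and WT mice 2 and 3 lay below it. *Mdh2* had the largest estimate of the 9, with means of 286 ± 47.1 (SD) and 331 ± 21.5 CPM (n = 3 each) and a log2 fold change of 0.21 (SE 0.12, interval -0.06 to 0.48, adjusted p = 0.648).

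Exons of 3 of the 9 genes overlap a gene on the opposite strand, among them *Idh3b* with *Nop56* and *Fh1* with *Kmo*. The library kit keeps the strand, but the strand setting of the counting is not given in the sources used here, so the values of these 3 genes carry that uncertainty.

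The Baf155 WT mice differed from each other by more than the genotypes did. The range over the 3 Baf155 WT mice exceeded the genotype difference for 9 of 9 transcripts, as it did for 85.4% of all genes. The range over the 3 Baf155 ΔMF mice was below that difference for *Ogdh* (0.15 against 0.17, log2) and *Mdh2* (0.19 against 0.21), and above it for the others. WT mouse 2 was the lowest of the 6 mice for 9 of 9, whereas it was the lowest for 16.6% of all genes and for 23.0% of the 1238 genes with a mean of at least 100 CPM. Averaged over the 9 transcripts, the deviation from the mean of the 6 mice on the log2 scale was -0.20 in WT mouse 2, and 0.08 and -0.01 in WT mice 1 and 3. It was 0.08, 0.02 and 0.04 in Baf155 ΔMF mice 1 to 3. The 9 genes took 0.316% of the counts of WT mouse 2 and between 0.340% and 0.364% of those of the other 5 mice. The median range over mice was 0.30 (log2) in Baf155 WT and 0.15 in Baf155 ΔMF, beside 0.26 and 0.18 for the genes with at least 100 CPM.

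**Figure D2:**
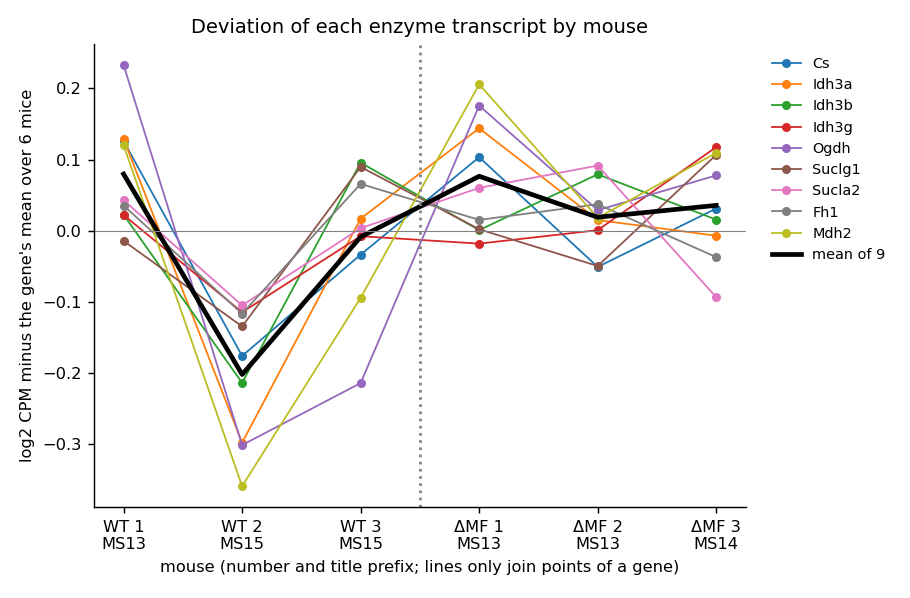
Log2 CPM of each of the 9 enzyme transcripts minus its mean over the 6 mice (y axis), by mouse with its title prefix (x axis), with the mean of the 9 in black. All 9 lines are lowest in WT mouse 2, where the mean is -0.20, and the mean of every other mouse lies between -0.01 and 0.08.

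The spread followed the title prefix only in part. Averaged over the 9 transcripts, the deviation was -0.20 and -0.01 in the MS15 mice and 0.08 in the MS13 mouse of the Baf155 WT group. In the Baf155 ΔMF group the MS14 mouse (0.04) lay between the MS13 mice (0.08 and 0.02). Both MS15 mice were below the MS13 mouse within the Baf155 WT group for 6 of 9 transcripts, and the MS13 mouse exceeded the mean of the MS15 mice by 0.01 (*Suclg1*) to 0.49 (*Ogdh*) on the log2 scale, with 0.35 for *Mdh2*. Within MS13, where 1 Baf155 WT mouse stood against 2 Baf155 ΔMF mice, the genotype difference was below 0 for 7 of 9. It ran from -0.13 (*Ogdh*) to 0.03 (*Sucla2*). The shares of all genes that go with the counts of 6 of 9 and 7 of 9 were not computed. With the prefix in the model the genotype difference rests on these same MS13 mice, with 1 Baf155 WT mouse. It was -0.13 for *Ogdh* and -0.0052 for *Mdh2*. MS14 and MS15 each hold 1 genotype, and in those mice genotype cannot be told apart from prefix.

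*Ogdh* was the transcript whose call changed when 1 mouse was left out. Without WT mouse 1, the log2 fold change was 0.35 (adjusted p = 0.0331) for *Ogdh* and 0.34 (adjusted p = 0.0626) for *Mdh2*, and both had an unadjusted p under 0.05 and no overlap between groups. In that comparison 3.6% of all genes had an adjusted and 12.0% an unadjusted p under 0.05 with the higher level in Baf155 ΔMF mice, 19.3% had every Baf155 ΔMF mouse above both Baf155 WT mice, and 955 of 12288 genes were called in all, against 3 with 6 mice. Without WT mouse 2, the log2 fold change was 0.07 for *Ogdh* and 0.10 for *Mdh2*, and the smallest adjusted p of the 9 was 0.988. Without ΔMF mouse 3, the groups did not overlap for 1 of the 9 genes, *Sucla2*, beside 14.2% of all genes in that direction.

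**Figure D3:**
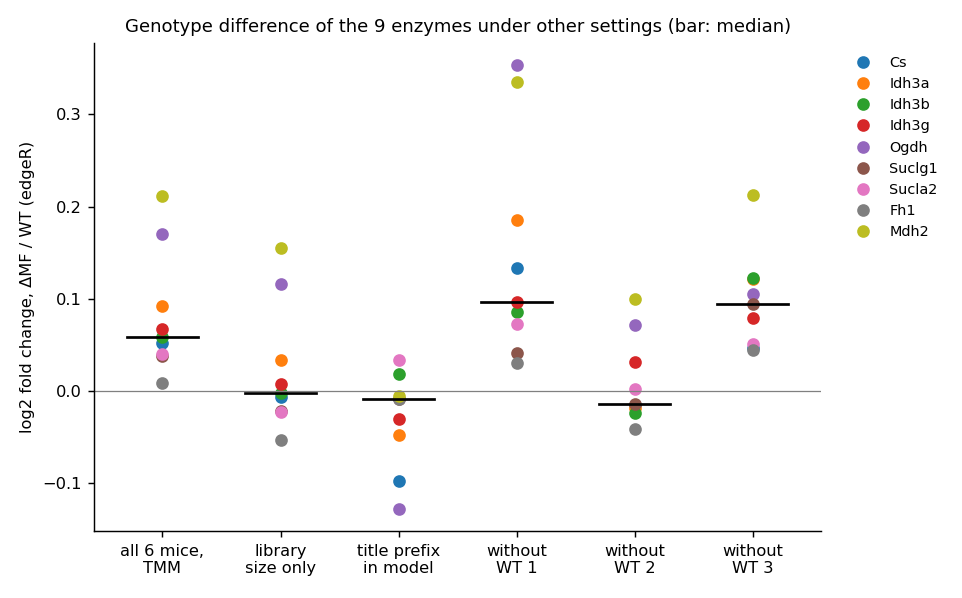
Log2 fold change, Baf155 ΔMF over Baf155 WT (y axis), of the 9 enzyme transcripts (colors) with all 6 mice and under 5 other settings (x axis), with a black bar for the median of the 9. The median is 0.06 with all 6 mice, -0.0025 with library size only, -0.01 with the title prefix in the model and without WT mouse 2, and 0.10 without WT mouse 1.

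Markers of other cells and of fiber types varied over the same mice, and none of those tested had an adjusted p under 0.05 between genotypes. Of all genes, 3.35% were higher and 4.6% lower in Baf155 ΔMF mice at an unadjusted p under 0.05. Without overlap, 5.2% of all genes lay above and 5.57% below. The summed level of 4 leukocyte markers was 36.9, 109 and 88.3 CPM in Baf155 WT mice and 35.1, 35.3 and 55.5 CPM in Baf155 ΔMF mice, and 4 of 4 had an unadjusted p under 0.05 (lower in Baf155 ΔMF mice) and 0 an adjusted one. The sum of 5 erythroid markers was highest in WT mouse 2, at 1227 CPM against 371 to 805 CPM in the other mice, and 3 of 5 had an unadjusted p under 0.05 (lower in Baf155 ΔMF mice). All 4 adipocyte markers were below 0, 1 of them, *Adipoq*, with an unadjusted p under 0.05. The sum of 8 slow or oxidative fiber markers was 5913, 4663 and 4445 CPM in Baf155 WT mice and 6158, 5952 and 5899 CPM in Baf155 ΔMF mice. Most of this sum came from *Myh2* and *Mb*. WT mice 2 and 3 were the lowest in this sum, as they were for *Ogdh* and *Mdh2* but for none of the other enzymes. For *Idh3b* and *Fh1*, WT mouse 3 was the highest of all mice. Of the 8 markers, 5 were above and 3 below 0, with a median log2 fold change of 0.04 and values of -0.16 for *Tnni1* and -0.14 for *Myl2*. *Myh2*, the myosin of fast oxidative fibers, had the lowest p of these 8, with a log2 fold change of 0.38 (unadjusted p = 0.0294, adjusted p = 0.601). The sum of 4 endothelial markers was 249, 192 and 200.2 CPM in Baf155 WT mice and 255, 273 and 251 CPM in Baf155 ΔMF mice, with 2 of 4 at an unadjusted p under 0.05 (higher in Baf155 ΔMF mice). The sum of 4 fibro-adipogenic markers was between 1114 and 1527 CPM in Baf155 WT mice, highest in WT mouse 2, and between 996 and 1366 CPM in Baf155 ΔMF mice, with 2 of 4 lower at an unadjusted p under 0.05. The sum of 6 fast glycolytic fiber markers was between 94019 and 96755 CPM in Baf155 WT mice and between 84588 and 93854 CPM in Baf155 ΔMF mice. Among 5 myofiber markers, 3 were above and 2 below 0. Of these 5, 1 had an unadjusted p under 0.05, *Myh1*, the myosin of another fast fiber type, with a log2 fold change of 0.49 (adjusted p = 0.601) and no overlap between groups. The 2 below 0 were *Ckm* (-0.20) and *Acta1* (-0.17). For *Ckm* the groups did not overlap either, with every Baf155 ΔMF mouse below every Baf155 WT mouse. The part of these differences in the enzyme levels was not tested.

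Transcript levels were compared between enzymes per kilobase of the principal transcript. *Cs* had the highest level, 224 ± 17.1 CPM per kilobase (SD, n = 6 mice), followed by *Mdh2* (212 ± 28.2), *Idh3g* (209.6 ± 10.9), *Sucla2* (207 ± 11.6), *Idh3b* (202 ± 14.9) and *Idh3a* (191 ± 19.8). *Ogdh* was lower at 149 ± 21.4, *Suclg1* at 108 ± 6.67 and *Fh1* at 87.3 ± 3.95 CPM per kilobase. The ranges over mice overlapped between each pair of neighbours in this order from *Cs* to *Ogdh*. Within mice, the higher neighbour was above the lower one in 5 of 6 mice for *Cs* and *Mdh2*, in 3 or 4 of 6 for the neighbours from *Mdh2* to *Idh3a*, and in 6 of 6 for *Idh3a* and *Ogdh*, so the order from *Mdh2* to *Idh3a* was not fixed beyond the spread over mice. The ranges did not overlap between *Ogdh* and *Suclg1* or between *Suclg1* and *Fh1*. With the length of all annotated exons in place of the principal transcript, a choice made after the data were examined, *Sucla2* was first (116 CPM per kilobase) and *Suclg1* (35.5) came below *Fh1* (67.9). The order of the levels therefore depended on the length used.

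Ratios between subunits of the same enzyme were computed within each mouse, which removes differences in depth and scaling. *Idh3b* to *Idh3a* was 0.726 ± 0.053 (SD) in Baf155 WT mice and 0.707 ± 0.053 in Baf155 ΔMF mice (n = 3 each, two-sided exact permutation p = 0.5). *Idh3g* to *Idh3a* was 0.621 ± 0.066 and 0.606 ± 0.060 (exact permutation p = 0.8). Alpha thus exceeded beta and gamma in CPM in every mouse of both groups. *Sucla2* to *Suclg1* was 2.81 ± 0.15 and 2.82 ± 0.34 (exact permutation p = 1). *Suclg2*, which encodes the GTP-forming beta subunit, was the lower of the beta subunits in CPM, with a ratio to *Sucla2* of 0.159 ± 0.0048 and 0.150 ± 0.0063 (exact permutation p = 0.3). *Ogdh* to *Dlst*, the E2 subunit of its complex, was 2.97 ± 0.30 and 3.07 ± 0.14 (exact permutation p = 0.7). These are ratios of CPM, not per length, and all 5 adjusted p-values were 1. The smallest p that 20 assignments of 6 mice allow is 0.1, so this test could not reach 0.05.

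The other subunits of the cycle and their assembly factors, 12 genes, gave 0 calls at an adjusted and 0 at an unadjusted p under 0.05, with 6 above and 6 below 0 and a median log2 fold change of -0.01. *Dld*, the E3 subunit shared with pyruvate dehydrogenase, had a log2 fold change of 0.17 (interval -0.09 to 0.44), and *Dlst* one of 0.13 (interval -0.09 to 0.36). Succinate dehydrogenase is both a cycle enzyme and complex II of the respiratory chain, and its subunits had log2 fold changes of 0.11 (*Sdha*), 0.09 (*Sdhb*), 0.01 (*Sdhc*) and -0.06 (*Sdhd*). The log2 fold changes of *Suclg2* and of the assembly factors *Sdhaf1*, *Sdhaf2*, *Sdhaf3* and *Sdhaf4* were -0.04, -0.22, -0.07, -0.16 and -0.12, and every interval of the 12 included 0. WT mouse 2 was the lowest mouse for 7 of these 12.

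**Figure D4:**
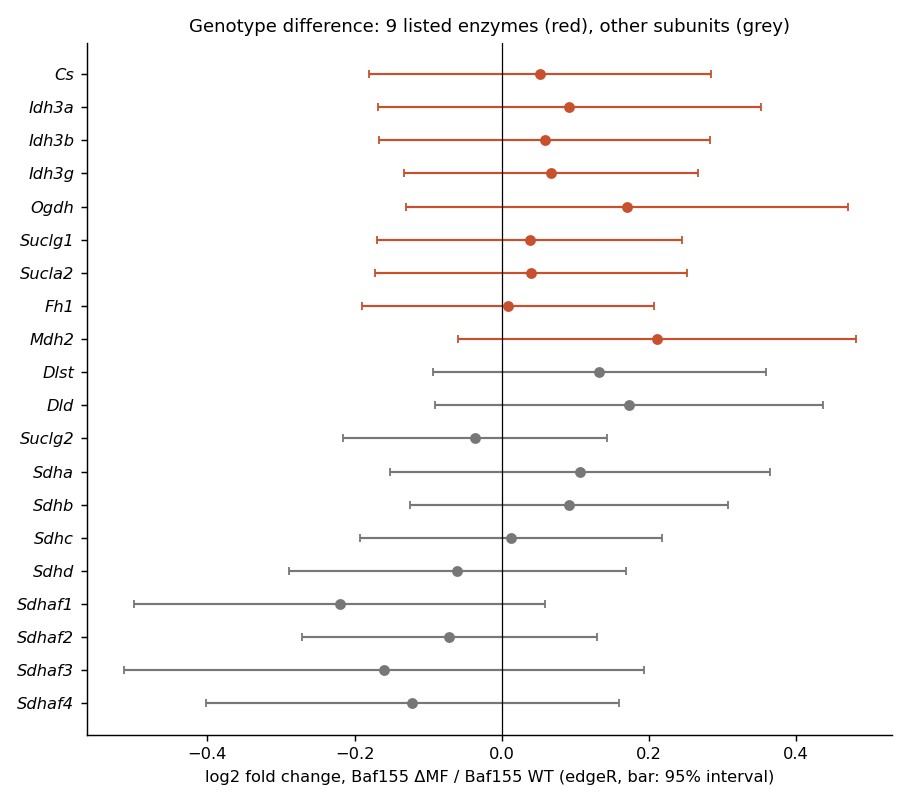
Log2 fold change, Baf155 ΔMF over Baf155 WT (x axis, points), with its 95% interval from edgeR (bars) for the 9 enzymes (red) and for the other subunits and assembly factors of the cycle that are named in the text (grey). Every interval includes 0, and the red points lie between 0.01 and 0.21.

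Neighbouring steps of metabolism were described by the counts of lists. Of 13 genes for pyruvate entry, 10 were above and 3 below 0, and none had an adjusted p under 0.05 by edgeR. The log2 fold changes of the 13 ran from -0.63 to 0.43. The pyruvate dehydrogenase phosphatases, which switch the pyruvate dehydrogenase complex on, were the 2 genes of this list with an unadjusted p under 0.05. Of all genes, 3.35% were higher in Baf155 ΔMF mice at that limit, and 5.2% lay above without overlap. *Pdp1* was at 178, 148 and 150.3 CPM in Baf155 WT mice and at 188, 193 and 185 CPM in Baf155 ΔMF mice, without overlap, a log2 fold change of 0.25 (adjusted p = 0.601). *Pdp2* was at 6.70, 7.04 and 4.73 CPM in Baf155 WT mice and at 8.76, 8.83 and 7.37 CPM in Baf155 ΔMF mice, also without overlap, a log2 fold change of 0.43 (adjusted p = 0.602). Within the MS13 mice the log2 differences were 0.10 for *Pdp1* and 0.38 for *Pdp2*.

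Of 10 related enzymes outside the cycle, 5 were above and 5 below 0, and *Acly*, which splits cytosolic citrate, was the 1 gene with an unadjusted p under 0.05, with a log2 fold change of -0.30 (adjusted p = 0.621) and overlapping groups. *Dhtkd1* followed with 0.36 (adjusted p = 0.728), at 16 to 25 counts per mouse. At an unadjusted p under 0.05, 4.6% of all genes were lower in Baf155 ΔMF mice. The lists of shuttles and carriers (8 genes tested), anaplerosis (8) and lipoylation, the cofactor attachment that the dehydrogenase complexes need (5), held 0 genes with an unadjusted p under 0.05. The smallest p-values there belonged to *Got2*, the mitochondrial aspartate aminotransferase (log2 fold change 0.13), *Slc25a1*, the citrate carrier (-0.32), *Gpt2* (-0.15), *Pcca* (0.18), *Mecr* (-0.24) and the lipoic acid synthase *Lias* (-0.09). *Lias* was the only one of these 6 whose groups did not overlap, at 41.2, 42.5 and 42.6 CPM in Baf155 WT mice and at 38.7, 39.0 and 41.0 CPM in Baf155 ΔMF mice. Its adjusted p by edgeR was 0.771, and 5.57% of all genes lay below without overlap.

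Among 7705 other genes with a mean of at least 10 CPM, those most like the mean profile of the 9 enzymes over the 6 mice were *Eif2d*, *Mdh1*, *Kcna7*, *Acadvl* and *Mrpl47*, with root mean square differences of 0.011, 0.023, 0.024, 0.026 and 0.030 on the log2 scale. *Mdh1* is the cytosolic malate dehydrogenase and *Acadvl* a mitochondrial enzyme of fatty acid oxidation. Of the 9 enzymes themselves, *Cs* was the nearest to their mean profile (0.039) and *Ogdh* the farthest (0.121). The other subunits and assembly factors of the cycle above this level ranked from 60 (*Dlst*) to 6565 (*Sdhaf1*) among the 7705 genes, with *Sdha* at 175, *Sdhb* at 961 and *Sdhd* at 2859.

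The start regions of the genes were read to show what sequence lies there, because the study deals with binding of HIF-1α and STAT3 to DNA. RefSeq windows of 250 bases before to 50 bases after the start site (GRCm38.p6) were found for 8 of the 9 genes. The motifs searched on both strands were ACGTG, the core of hypoxia response elements, TTCNNNGAA, the palindrome bound by STAT proteins, AAGGTCA, the sequence bound by estrogen-related receptors, and GCGCATGC, the core bound by NRF1. The 250 bases upstream of the start are printed for *Cs*, the usual marker of mitochondrial content, for *Idh3g*, the only one of 7 genes with a single window that held a motif, and for *Ogdh*, from the first of its 6 windows. The RefSeq start of that *Ogdh* window lies upstream of the start of the gene in GENCODE M21. Capitals mark a motif on either strand.
Cs: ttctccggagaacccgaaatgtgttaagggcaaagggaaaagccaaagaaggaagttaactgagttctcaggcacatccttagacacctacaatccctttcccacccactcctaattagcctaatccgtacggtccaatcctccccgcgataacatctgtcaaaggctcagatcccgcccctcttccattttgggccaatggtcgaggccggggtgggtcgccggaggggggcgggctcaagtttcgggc
Idh3g: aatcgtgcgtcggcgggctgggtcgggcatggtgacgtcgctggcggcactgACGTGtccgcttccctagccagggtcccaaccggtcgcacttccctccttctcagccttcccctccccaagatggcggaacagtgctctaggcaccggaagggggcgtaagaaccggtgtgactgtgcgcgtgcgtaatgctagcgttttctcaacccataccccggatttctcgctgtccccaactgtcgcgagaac
Ogdh: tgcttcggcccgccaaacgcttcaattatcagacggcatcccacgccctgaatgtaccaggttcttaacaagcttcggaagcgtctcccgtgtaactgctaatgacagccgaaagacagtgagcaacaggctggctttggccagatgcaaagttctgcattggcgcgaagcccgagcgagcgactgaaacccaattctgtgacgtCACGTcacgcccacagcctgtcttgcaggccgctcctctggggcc
These lie at chr10:128337477-128337726 (plus strand), chrX:73786898-73787147 (minus strand) and chr11:6291347-6291596 (plus strand). ACGTG was in 1 of the 7 genes with a single window, *Idh3g*, 198 bases before the start, and in 19.6% of all 32851 windows. It was also in 6 of 6 *Ogdh* windows, which overlap in part, and in the printed one it lies on the opposite strand, 45 bases before the start. TTCNNNGAA was in 0 of the 7, beside 8.3% of all windows, AAGGTCA in 0, beside 4.7%, and GCGCATGC in 0, beside 2.7%. In *Ogdh*, AAGGTCA was in 1 window and GCGCATGC in 2 overlapping windows, all farther downstream. *Ogdh* therefore held 3 of the 4 motifs in at least 1 of its windows. Its 6 windows cover more sequence than the single window of each of the other 7 genes. The shares above are per window, so they cannot be set beside this count. These are matches of letters, and binding was not measured in this series.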

How the data were processed

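RNA from whole hind limb muscle of 6 mice was sequenced by the authors from stranded total RNA libraries (1 per mouse). The authors deposited expected counts, estimated reads per gene without normalization, for 20632 genes. The submitters' processing notes name CASAVA 1.8.2, cutadapt 1.10, Bowtie2 2.2.7, TopHat2 2.1.1, RSEM 1.2.30, limma and the builds mm10 and GRCm38, with no role or order. TopHat2 and Bowtie2 align reads, and RSEM divides reads shared between genes, which can give fractional counts.

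The genotype label of each sample set its group, and replicate numbers were given in accession order. The deposited expected counts were rounded to whole counts. Genotypes were then compared with edgeR 4.0.16 (R 4.3.3): filterByExpr (minimum count 10, minimum total 15; 12116 genes kept, 4358 had no counts), scaling by the trimmed mean of M-values (TMM; factors 0.958 to 1.05) and the quasi-likelihood F test of genotype without covariates. The common dispersion corresponded to a biological coefficient of variation of 0.111. The Benjamini-Hochberg adjustment covered every gene tested, and SEs and 95% intervals came from the same fit. CPM is the count scaled to the TMM-corrected library size, and the 9 enzymes had 1508 to 7576 counts per mouse, so the spread between mice, not counting, limited precision. Ratios within a mouse were tested by exact permutation of the genotypes (two-sided). Mice of a genotype differed by more than sampling noise (chi-square per degree of freedom 3.81 to 38.8), so none was counted as a duplicate.

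Alternatives were the title prefix as covariate, each mouse left out in turn, 3 other scalings, 2 other filters on low counts, limma-voom (limma 3.58.1) and DESeq2 1.42.0. The exon length was added after the data were examined. The fit was tested on simulated data with known changes.

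The members and gene lists were chosen with earlier results of these data known. Named genes are the 9 members, *Smarcc1*, the other subunits of the cycle, and from each other list the genes with an adjusted p under 0.05 or else the 2 with the smallest unadjusted p, plus the 5 genes most like the members' mean profile among those with a mean of at least 10 CPM. One gene of the other subunits is counted but not reported here by name. Positions came from GENCODE M21 (GRCm38) and start regions from RefSeq (GRCm38.p6).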

Additional observations from a re-analysis of the deposited data

How the results depend on the processing

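With all 6 mice, 3 genes had an adjusted p under 0.05, against 22 with DESeq2, 5 with limma-voom, 17 without a filter on low counts, 16 with the title prefix as covariate, and 0 to 955 when each mouse was left out in turn. The 0 was reached by edgeR without WT mouse 2 (451 genes at an unadjusted p under 0.05) and without ΔMF mouse 2 (568). Among the 9 enzymes, leaving out each mouse gave 0 to 1 at an adjusted p under 0.05, 0 to 2 at an unadjusted one, and 0 to 2 without overlap. The highest counts came without WT mouse 1, where 12.0% of all genes were higher at an unadjusted p under 0.05 and 19.3% lay above without overlap, and the enzyme called was *Ogdh*. Their median log2 fold change of 0.06 became -0.0025 with library size only, where the median of all genes was -0.06, and -0.0093 with the title prefix, and was between -0.0141 and 0.10 without each mouse. DESeq2, voom, RLE scaling and both other filters left all 9 above 0 and none called.

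With library size only, the log2 fold changes below 0 were *Cs* -0.0063, *Idh3b* -0.0025, *Sucla2* -0.0226, *Suclg1* -0.0225 and *Fh1* -0.0533. With the title prefix they were *Cs* -0.10, *Idh3a* -0.048, *Idh3g* -0.0307, *Ogdh* -0.13, *Suclg1* -0.0093, *Fh1* -0.0091 and *Mdh2* -0.0052, and with upper-quartile scaling *Fh1* -0.0052. Leaving out each mouse gave -0.016 to 0.13 for *Cs*, -0.0186 to 0.19 for *Idh3a*, -0.0237 to 0.12 for *Idh3b*, -0.0141 to 0.0939 for *Suclg1* and -0.0418 to 0.0438 for *Fh1*, while *Idh3g*, *Ogdh*, *Sucla2* and *Mdh2* stayed above 0. For the ratios within a mouse, the mean log2 ratio of Baf155 ΔMF minus that of Baf155 WT mice was taken with each mouse left out. This difference was -0.10 to 0.0246 for *Idh3b* to *Idh3a* and -0.11 to 0.0485 for *Idh3g* to *Idh3a*. It was -0.0712 to 0.0993 for *Sucla2* to *Suclg1* and -0.0097 to 0.13 for *Ogdh* to *Dlst*. The log2 fold change of *Smarcc1* was -1.59 to -1.36 when each mouse was left out, and -1.78 with the title prefix. Its adjusted p-values by edgeR were 0.0616, 0.0533 and 0.0678 without WT mouse 2, ΔMF mouse 1 and ΔMF mouse 2. The causes were not tested. No paired analysis was possible because the replicate numbers were given in accession order and do not pair the mice. With 3 mice per genotype, differences smaller than the intervals given could not be detected.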
